A study of Homo sapiens with 6 samples.

Results

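MHC class I presentation was examined through 9 genes chosen by name among 60660 gene IDs. They encode the class I heavy chains HLA-B, HLA-C, HLA-E and HLA-F, the light chain B2M, the peptide transporter subunits TAP1 and TAP2, the loading chaperone TAPBP and the transactivator NLRC5. All 9 matched exactly 1 ID and passed the filter on low values, as did 28015 genes in all. The samples were 6 RNA-seq libraries of OCI-AML3, a human cell line from acute myeloid leukaemia. 3 libraries came from cells with an empty lentiviral vector, named pLenti in the titles, and 3 from cells overexpressing SLC2A3, the gene of the glucose transporter GLUT3. Every culture in both groups was given 250 µM vitamin C, so the comparison is between vectors, all under vitamin C. The labels state neither the promoter that drives SLC2A3 nor whether each line is 1 clone, and whether the 3 replicates of a group were grown apart is not stated. The p-values below therefore speak of variation among these 6 libraries, part or all of which may be technical.

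Class I molecules show peptides from inside the cell to cytotoxic T cells and NK cells. Proteasomes cut proteins to peptides, the TAP transporter moves these into the endoplasmic reticulum, and tapasin, the product of TAPBP, bridges the transporter to empty class I molecules while they are loaded. The loaded complex is a heavy chain, B2M and a peptide, and its genes are switched on together by interferon and by NLRC5. Class I molecules on leukaemic blasts are what cytotoxic T cells recognise when they attack the leukaemia.

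Promoter sequences are shown first because the class I genes share a promoter layout that the choice of members did not use. RefSeq promoter windows on GRCh38.p14 were at hand for 7 of the 9 members, all but HLA-E and NLRC5. The 4 below are each the 250 bases before the RefSeq transcription start, on the gene's own strand. They belong to HLA-B (chr6:31357180-31357429, minus strand), HLA-C (chr6:31272093-31272342, minus strand), B2M (chr15:44711267-44711516, plus strand) and TAPBP (chr6:33314079-33314328, minus strand). Capitals mark matches, on either strand, to a kappaB-like motif (GGG, any 2 bases, TT, any base, CC), to 2 forms of an interferon-response motif (GAAA or GAA, any 2 bases, then GAAA) and to a pair of motifs, TGACG followed by ATTGG after 15 to 25 bases. That pair stands for the X2 and Y boxes of class I promoters. Capitals run together where matches overlap, as they do in B2M and TAPBP.
HLA-B: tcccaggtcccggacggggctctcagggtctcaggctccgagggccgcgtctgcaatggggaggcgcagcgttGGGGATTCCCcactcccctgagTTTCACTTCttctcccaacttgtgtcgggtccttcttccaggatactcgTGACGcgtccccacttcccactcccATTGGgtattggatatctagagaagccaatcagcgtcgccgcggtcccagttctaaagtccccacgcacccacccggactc
HLA-C: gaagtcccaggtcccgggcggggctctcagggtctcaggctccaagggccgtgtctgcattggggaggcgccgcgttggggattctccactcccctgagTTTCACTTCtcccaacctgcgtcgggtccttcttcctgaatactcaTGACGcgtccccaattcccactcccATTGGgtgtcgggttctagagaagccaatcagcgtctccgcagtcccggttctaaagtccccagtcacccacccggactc
B2M: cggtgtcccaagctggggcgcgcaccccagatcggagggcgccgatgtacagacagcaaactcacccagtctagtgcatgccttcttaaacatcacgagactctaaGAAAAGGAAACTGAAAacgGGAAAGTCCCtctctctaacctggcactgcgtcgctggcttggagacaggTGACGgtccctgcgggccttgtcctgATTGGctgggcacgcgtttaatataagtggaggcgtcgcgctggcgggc
TAPBP: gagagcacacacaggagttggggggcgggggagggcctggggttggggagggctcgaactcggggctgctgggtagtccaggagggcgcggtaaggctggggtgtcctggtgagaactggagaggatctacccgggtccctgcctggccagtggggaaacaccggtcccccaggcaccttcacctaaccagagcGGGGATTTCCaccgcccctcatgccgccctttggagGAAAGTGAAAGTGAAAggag

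The X2 and Y pair was present in HLA-B, HLA-C and B2M, with 20, 20 and 21 bases between its parts, and in no other of the 7 member promoters. It occurred in 143 of 34943 RefSeq promoter windows of the same length (0.409%). Every one of the 7 member promoters held at least 1 of the 2 interferon-response forms, against 9.09% of all windows. The kappaB-like motif was in 4 of 7 (HLA-B, B2M, TAP1 and TAPBP), against 5.05% of all windows. In TAPBP both interferon-response matches lie between 20 and 5 bases before the RefSeq start, and they share bases with each other. That start lies 309 bases inside the GENCODE 29 gene model whose coordinates are given below, so the window is within that model. The RefSeq start of TAP1 lies 274 bases inside its model and that of HLA-F 659, and those of the other 4 lie at most 41 bases from theirs. The motif letters and the spacing were chosen with these promoters in view, so the shares describe the windows and test nothing, and a match is not a bound site.

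The levels of the members spanned a wide range. By level per kilobase of exon in the empty vector group, HLA-B exceeded 96.7% of tested genes, HLA-F 76.7%, TAP1 74.8% and TAP2 70.8%. Per kilobase of annotated exon, HLA-B was highest in the empty vector group at 9205 normalised reads, followed by HLA-E at 4616, B2M at 4144, HLA-C at 2869, TAPBP at 1264, NLRC5 at 448, HLA-F at 215, TAP1 at 185 and TAP2 at 137. The order depends on the length used: over the length of 1 coding transcript per gene, B2M moved above HLA-E, at 14774 against 5280 normalised reads per kilobase, and the other places were the same. The transcript used for HLA-B holds coding bases only, which raises its value on that scale. The difference between B2M and HLA-E on the exon scale was larger than the spread of either (SD 149 and 54.7), as was that between HLA-F and TAP1 (SD 1.35 and 6.17). The 9 members together took 0.266% to 0.271% of reads in the empty vector libraries and 0.275% to 0.285% in the SLC2A3 libraries.

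The heavy chain and light chain genes had slightly higher mean values with SLC2A3, none past the threshold of an adjusted p of 0.05, and TAPBP was lower and was the single member that passed. That is 1 of 9, against 1.49% of all tested genes called in either direction, 0.8% called lower and 0.692% called higher. Among the 8088 tested genes with a mean of at least 500 normalised reads, a level all 9 members exceed, 4.44% were called. Groups did not overlap for 3 members, HLA-E and B2M above and TAPBP below, against 16.3% of tested genes (8.04% above and 8.27% below) and 27% of those with a mean of at least 500. The median log2 fold change of the 9 was 0.050, against 0.0014 for all tested genes, with 5 members positive and 4 negative. An unadjusted p under 0.05 by limma was found for 4 of 9 members (HLA-E, B2M, TAP1 and TAPBP) and for 11.8% of tested genes, or 23.4% of those with a mean of at least 500.

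**Figure D1:**
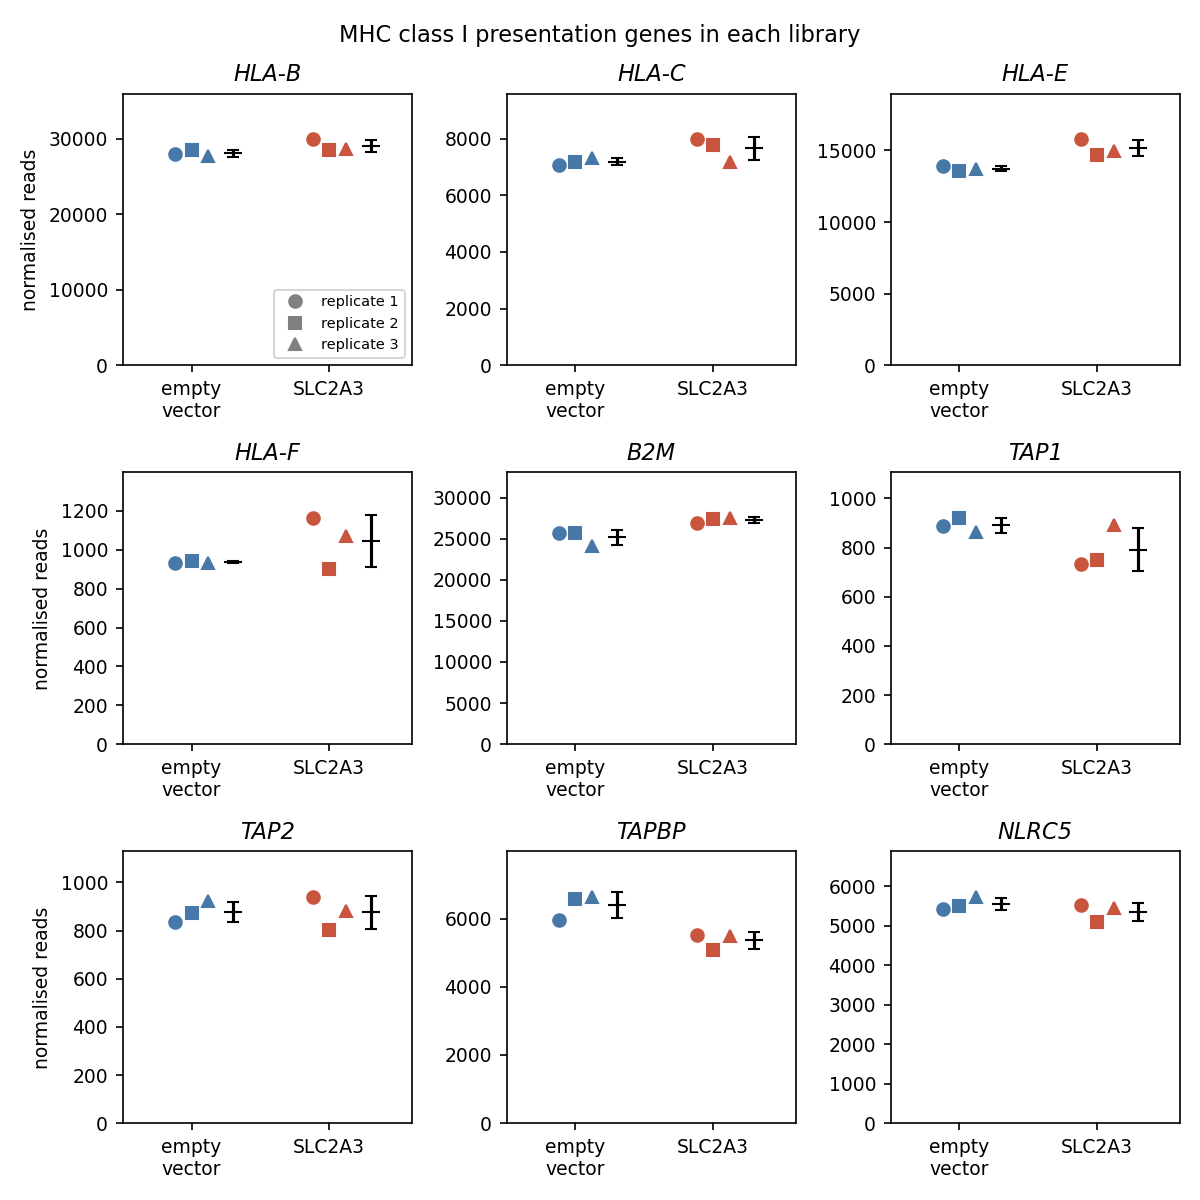
Normalised reads (vertical axes, from 0) of the 9 members in each of the 3 empty vector (blue) and 3 SLC2A3 (red) libraries; marker shapes give the replicate, bars the mean and SD (n = 3). The SLC2A3 libraries lie below the empty vector libraries for TAPBP and above them for HLA-E and B2M, and the groups overlap for the other 6 members.

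HLA-B (chromosome 6, 31269491 to 31357188, GRCh38) encodes a classical heavy chain, one of those that present to T cells. HLA-C, HLA-E, HLA-F, TAP1, TAP2 and TAPBP also lie on chromosome 6, and coordinates are those of GENCODE 29. Its values were 28044, 28522 and 27686 normalised reads with the empty vector and 30018, 28509 and 28706 with SLC2A3. SLC2A3 replicate 1 was the highest of the 6, and the groups overlapped. This was a log2 fold change of 0.050 (SE 0.035, 95% interval -0.022 to 0.12, limma adjusted p = 0.655), and it was 0.027 without SLC2A3 overexpression replicate 1. HLA-C (31268749 to 31272130), the other classical heavy chain examined and a main ligand of killer-cell receptors, read 7086, 7183 and 7311 without and 7997, 7775 and 7190 with SLC2A3. SLC2A3 replicate 3 fell inside the range of the empty vector libraries while the other two lay above it, and HLA-C had a log2 fold change of 0.088 (SE 0.045, limma adjusted p = 0.452). Without SLC2A3 overexpression replicate 1 it was 0.056, and without SLC2A3 overexpression replicate 3 it was 0.13.

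HLA-E (30489467 to 30494205), a non-classical heavy chain that presents leader peptides to the inhibitory NKG2A receptor of NK cells, stood nearest to the threshold among the heavy chains. It had 13902, 13577 and 13718 normalised reads with the empty vector and 15817, 14710 and 14989 with SLC2A3. All 3 SLC2A3 values exceeded all 3 empty vector values. The means were 13732 ± 163 and 15172 ± 576 (SD, n = 3), a difference of 10.4% (95% interval 4.51% to 16.7%), with a log2 fold change of 0.14 (SE 0.039, limma adjusted p = 0.0597). This call turned on the method. On the recovered reads HLA-E was called higher by edgeR with TMM factors (adjusted p = 0.0331, 3.29% of genes called) or relative log expression factors (0.0304, 3.27%), by DESeq2 (0.0029, 8.62%) and by limma-voom (0.0173, 3.24%). The DESeq2 share is over the 9332 genes to which it gave an adjusted p. With limma it was called under upper-quartile scaling (adjusted p = 0.0388, 1.54% of genes called) and with at least 50 normalised reads in 3 libraries (0.0242, 5.53%). It was also called by limma without SLC2A3 overexpression replicate 2 (adjusted p = 0.0389, 1.09% of genes called) and without replicate 2 of both groups (0.0249, 2.02%). The call by edgeR with TMM factors did not hold with replicate as a block (adjusted p = 0.0639). Over all 19 alternatives the adjusted p ran from 0.0029 to 0.187, and the direction was kept in each.

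HLA-F (29722775 to 29738528), the least abundant heavy chain among the members, can reach the surface without peptide. Its values spread further within the SLC2A3 group than within the empty vector group. Values were 933, 942 and 931 with the empty vector and 1164, 900 and 1069 with SLC2A3. SLC2A3 replicate 2 was below every empty vector library and the other two were above, which gave an SD of 134 against 5.87. The log2 fold change of 0.15 (SE 0.080, limma adjusted p = 0.477) was 0.25 (adjusted p = 0.126) without SLC2A3 overexpression replicate 2 and 0.069 (adjusted p = 0.817) without SLC2A3 overexpression replicate 1.

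B2M (chromosome 15, 44711487 to 44718877), the light chain that every class I heavy chain needs to fold, had 25689, 25741 and 24141 normalised reads without and 26916, 27463 and 27551 with SLC2A3. The groups did not overlap, and the smallest gap was between empty vector replicate 2 and SLC2A3 replicate 1. Means of 25190 ± 909 and 27310 ± 344 (SD, n = 3) differed by 8.46% (95% interval 3.04% to 14.2%), a log2 fold change of 0.12 (SE 0.036, limma adjusted p = 0.114). DESeq2 (adjusted p = 0.0144) and limma-voom (0.0335) called it higher and edgeR with TMM factors did not (0.0733).

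TAPBP (33299694 to 33314387) moved the other way. It had 5950, 6579 and 6638 normalised reads with the empty vector and 5532, 5075 and 5483 with SLC2A3. The lowest empty vector library, replicate 1, was still above the highest SLC2A3 library. Means of 6389 ± 381 and 5363 ± 251 (SD, n = 3) gave a decrease of 16.0% (95% interval of the change -21.7% to -9.90%). On the log2 scale the change was -0.25 (SE 0.049, limma adjusted p = 0.0047), and the call held in all 19 alternatives, at -0.30 to -0.19 with adjusted p from 7.71e-05 to 0.0415. TAPBP shared none of its 50-base transcript windows with another annotated gene.

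TAP1 (32845209 to 32853978) and TAP2 (32821833 to 32838780) form the peptide transporter together. TAP1 had 887, 921 and 862 normalised reads without and 733, 748 and 893 with SLC2A3: SLC2A3 replicates 1 and 2 were the lowest of the 6 and replicate 3 was within the empty vector range. The log2 change of TAP1 was -0.18 (SE 0.080, 95% interval -0.34 to -0.010, limma adjusted p = 0.385), and it was -0.27 (adjusted p = 0.196) without SLC2A3 overexpression replicate 3. TAP2 had 837, 875 and 921 against 941, 805 and 883, with the groups interleaved, a log2 fold change of -0.0046 (SE 0.077, 95% interval -0.16 to 0.15) and a sign that turned under upper-quartile scaling (0.0086). TAP1 and PSMB9, an immunoproteasome subunit, lie on opposite strands and overlap over the whole 8770 bases of TAP1 in GENCODE 29. The library kit was directional, but whether counting used strand is not given, so reads of this pair may not be told apart.

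NLRC5 (chromosome 16, 56989485 to 57083531), the transactivator of class I genes, had 5417, 5492 and 5729 normalised reads without and 5526, 5093 and 5443 with SLC2A3. SLC2A3 replicate 2 was lowest and the groups overlapped (log2 fold change -0.051, SE 0.047, 95% interval -0.15 to 0.044, limma adjusted p = 0.762). The log2 fold change was -0.016 without SLC2A3 overexpression replicate 2 and -0.028 without empty vector replicate 3. The interval allows a decrease of up to 9.67% and an increase of up to 3.11%.

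**Figure D2:**
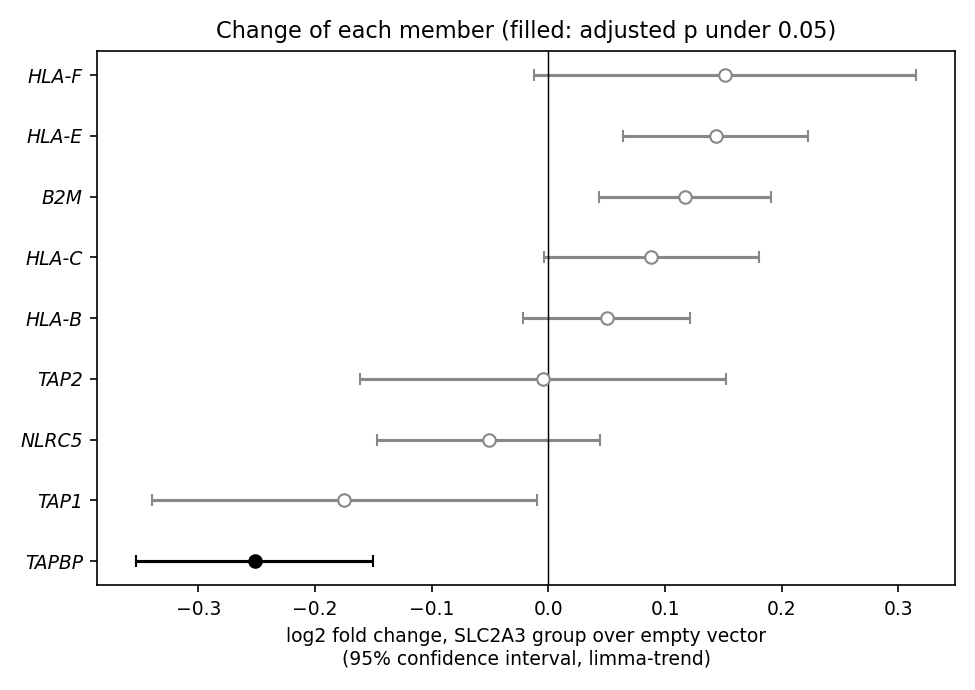
Log2 fold change of each member (horizontal axis, SLC2A3 group over empty vector) with its 95% confidence interval from limma; the filled point passed an adjusted p of 0.05. TAPBP lies at -0.25, and the intervals of HLA-E, B2M and TAP1 leave out 0 although their adjusted p did not pass.

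Ratios between members within a library do not depend on how libraries were scaled. TAPBP stood at 23.2, 25.6 and 27.5 reads per 100 reads of B2M with the empty vector and at 20.6, 18.5 and 19.9 with SLC2A3, with no overlap. The means were 25.4 ± 2.17 and 19.6 ± 1.06 (SD, n = 3). The 4 heavy chains summed to 195, 195 and 206 reads per 100 of B2M without and 204, 189 and 189 with SLC2A3, and the groups overlapped. HLA-E stood at 49.6, 47.6 and 49.5 reads per 100 of HLA-B without and 52.7, 51.6 and 52.2 with SLC2A3. TAP1 per 100 reads of TAP2 overlapped, at 93.6 to 106 and 77.9 to 101. These ratios were formed after the values were seen and are given as a description.

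**Figure D3:**
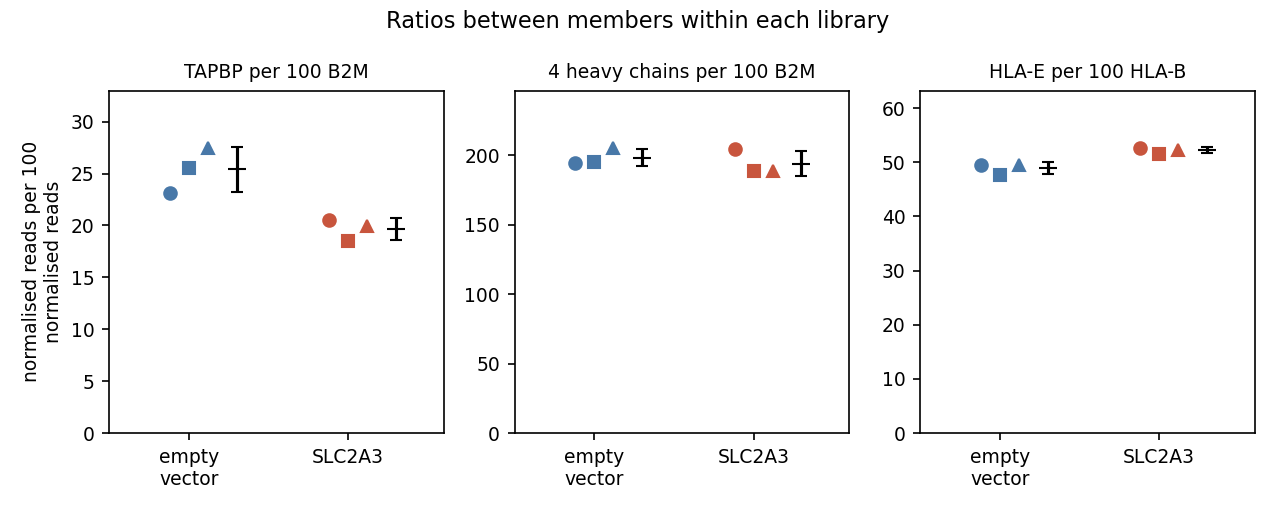
Normalised reads of one gene per 100 normalised reads of another within each library (vertical axes, from 0; blue empty vector, red SLC2A3; circle, square and triangle for replicates 1, 2 and 3; bars mean and SD, n = 3). TAPBP per B2M is lower in all 3 SLC2A3 libraries and HLA-E per HLA-B higher, while the heavy chain sum per B2M overlaps.

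Around the members, 105 further genes of the class I pathway in 8 lists were read in the same fit. 101 were tested, 0 were called higher and 1 lower, DNMT1, against 1.49% of all tested genes called in either direction. Groups did not overlap for 10 above and 21 below, against 8.04% and 8.27% of all tested genes. Of the 8088 tested genes with a mean of at least 500, 942 lay above without overlap and 1243 below. In either direction, groups did not overlap for 16.3% of all tested genes and 27% of those with a mean of at least 500. Of the 101, 59 had a negative log2 fold change and 42 a positive one. An unadjusted p under 0.05 by limma was found for 17, of which 14 were lower and 3 higher, against 11.8% of all tested genes. Of the 83 with a mean of at least 500 normalised reads it was found for 15, against 23.4% of all tested genes at that level. edgeR with TMM factors, which called 3.29% of all genes it tested, called SUSD6, ULBP1 and DNMT1 lower. DESeq2 (8.62% called of the 9332 genes it gave an adjusted p) called HSPA5 higher and SUSD6, DNMT1 and GANAB lower. limma-voom (3.24%) called SUSD6 and DNMT1 lower.

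Peptide supply showed no call: 0 of 11 proteasome genes and 0 of 9 trimming peptidases passed by limma, with list medians of 0.041 and -0.029 and 0 and 1 genes at an unadjusted p under 0.05. The immunoproteasome subunits PSMB8 and PSMB9 had log2 fold changes of 0.051 and 0.043, and PSMB10 of -0.11 (limma adjusted p = 0.751, 0.822 and 0.563). Of 9 folding and loading chaperones 0 passed, with a median of 0.044 and 2 at an unadjusted p under 0.05. Within that list the partners of tapasin in the loading complex, calreticulin (CALR) and the disulfide isomerase PDIA3, had log2 fold changes of 0.066 and 0.050. The tapasin relative TAPBPL, which edits peptides outside the complex, had -0.092 (limma adjusted p = 0.463, 0.693 and 0.784).

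Genes of class I traffic and turnover numbered 14 tested with 0 calls and a median of -0.051, and 4 had an unadjusted p under 0.05. SUSD6, which helps to send class I molecules to degradation, had 1346, 1297 and 1184 normalised reads without and 1116, 990 and 1118 with SLC2A3. Its groups did not overlap, and its log2 fold change was -0.25 (limma adjusted p = 0.085). Its partners TMEM127 and WWP2 had -0.064 and -0.067 (limma adjusted p = 0.774 and 0.673). Among 12 tested non-classical and class I-like genes 0 passed, with a median of 0.022 and 2 at an unadjusted p under 0.05. ULBP1, a stress-induced ligand of the activating NK receptor NKG2D, had 14.1 ± 4.77 normalised reads without and 2.59 ± 0.980 with SLC2A3 (SD, n = 3), and its adjusted p was 0.0974 by limma and 0.0379 by edgeR. It is a low-read gene whose groups did not overlap. The related ligands MICA and MICB had log2 fold changes of -0.20 and -0.20 (limma adjusted p = 0.489 and 0.529). The other tested ligands of this receptor had positive values, ULBP2 of 0.22, ULBP3 of 0.043 and RAET1E of 0.37 (limma adjusted p = 0.928, 0.976 and 0.927). For RAET1E, at 0 in empty vector replicates 2 and 3, the mean of normalised reads was lower with SLC2A3 (1.65 against 2.38). SUSD6, ULBP1 and the other genes named from these lists, apart from DNMT1, were chosen after their values were seen.

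Of 17 genes of interferon signalling 0 passed by limma, 14 had a negative log2 fold change and 4 an unadjusted p under 0.05, with a median of -0.060. Over all tested genes 13935 of 28015 were negative. Among those with a mean of at least 500 normalised reads 4427 of 8088 were, with a median of -0.011. IRF1, an interferon-induced activator of class I promoters, had 1387, 1351 and 1499 normalised reads without and 1268, 1277 and 1093 with SLC2A3, with no overlap (log2 fold change -0.22, limma adjusted p = 0.129). SOCS1, an inhibitor of interferon signalling and a low-read gene, went the other way without overlap, at 22.2 ± 5.25 without and 41.8 ± 12.5 with SLC2A3 (SD, n = 3; log2 fold change 0.86, limma adjusted p = 0.297). Of 17 factors that act at class I promoters 0 passed, with a median of -0.029 and 2 at an unadjusted p under 0.05. Their log2 fold changes ran from -0.17 to 0.42, the highest being CIITA (limma adjusted p = 0.457). The X box factor RFX5 had a log2 fold change of 0.0097 and the NF-kB subunit NFKB1 of -0.17 (limma adjusted p = 0.976 and 0.213). Of 12 chromatin repressors, the maintenance DNA methyltransferase DNMT1 fell, from 15128, 14974 and 15770 to 14046, 13364 and 12893 normalised reads (log2 fold change -0.19, SE 0.040, limma adjusted p = 0.0106). It lost its call without empty vector replicate 3 (-0.16, adjusted p = 0.0925) and without SLC2A3 overexpression replicate 3 (-0.16, adjusted p = 0.155).

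**Figure D4:**
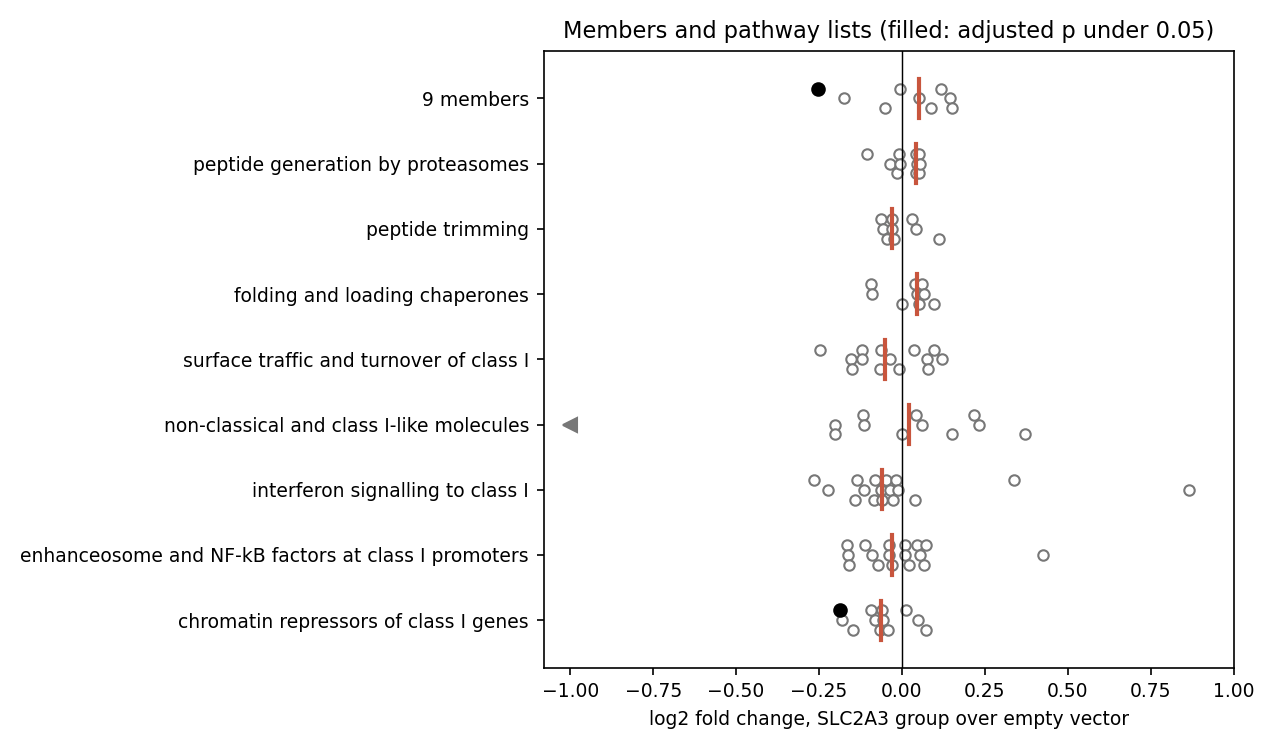
Log2 fold changes (horizontal axis) of the 9 members and of the tested genes in 8 pathway lists, 1 point a gene, red bars the list medians, filled points an adjusted p under 0.05 by limma; the triangle at the left edge is ULBP1, at -2.06. List medians lie between -0.064 and 0.050, and TAPBP and DNMT1 are the 2 filled points.

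Within 200 kb of any member, 107 other genes were tested, and RPS18 and CPNE2 were called, 2 of 107 against 1.49% of all tested genes. RPS18, a ribosomal protein gene 23.2 kb from TAPBP, was higher (log2 fold change 0.20), opposite in sign to TAPBP. CPNE2, which encodes a calcium-dependent membrane-binding copine and lies 9.01 kb from NLRC5, was lower (log2 fold change -0.28, limma adjusted p = 0.00194), while NLRC5 did not pass. The 5 protein-coding genes whose profile over the 6 libraries was nearest to the mean profile of the members were SMG5, SASH3, SAP30BP, VPS4A and VARS1. Their root mean square distances were 0.0072 to 0.0148 log2 units, against a median of 0.0988 over 11427 genes. The mean profile joins members that moved in opposite directions and spans 0.11 log2 units, so nearness to it is a description of nearly flat genes.

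Sequence identity limits how well some members can be counted. Of 50-base windows in 1 coding transcript per gene, HLA-C shared 6.71%, HLA-E 5.13%, HLA-B 2.40% and HLA-F 1.70% with another gene's annotated transcripts, and at 100 bases the share was at most 0.600% for these 4. TAP2 shared 35.6%, and the gene that overlaps it on the same strand over 16948 bases was listed at 0 in all libraries. The GENCODE 29 models of HLA-B and HLA-C overlap in part, over 2640 bases of the same strand, so how reads were divided between these genes is uncertain. Class I genes are among the most variable in humans and read alignment was to a reference genome, so levels of HLA genes may be understated by an amount that was not tested.

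SLC2A3 itself had 1194, 1183 and 1257 normalised reads with the empty vector and 4056, 3716 and 4054 with SLC2A3, in the direction of the labels. Library depth was 31054462 to 35770556 recovered reads. Of 10 myeloid markers all were detected in every library, CD33 at 2421 to 2625 normalised reads, with CD68 lowest. Of 10 T and NK cell markers, 2 (CD3D and CD3E) were at 0 throughout, although NCAM1 was at 7388 to 7856, and B cell, erythroid and megakaryocyte lists summed to at most 315. The 12 epithelial, fibroblast and kidney line markers summed to 105 to 130 normalised reads with the empty vector and 164 to 217 with SLC2A3, a sum that moved with the groups. Of these, 0 were at 0 in every library, 0 were called by limma, and 2 had an unadjusted p under 0.05. RN7SL1, a noncoding RNA, also moved with the groups, at 538, 1812 and 705 against 2233, 6026 and 1922, and was highest in replicate 2 of both. It was called higher (log2 fold change 1.74, limma adjusted p = 0.000861). The part of either in the members' values was not tested. Leaving out both replicate 2 libraries cannot show it, because RN7SL1 still differed between the groups, at 538 and 705 against 2233 and 1922. Without those libraries TAPBP had a log2 fold change of -0.19 and HLA-E of 0.16, both called (limma adjusted p = 0.0297 and 0.0249). In bulk RNA, fewer cells with a transcript and less of it per cell cannot be told apart.

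**Figure D5:**
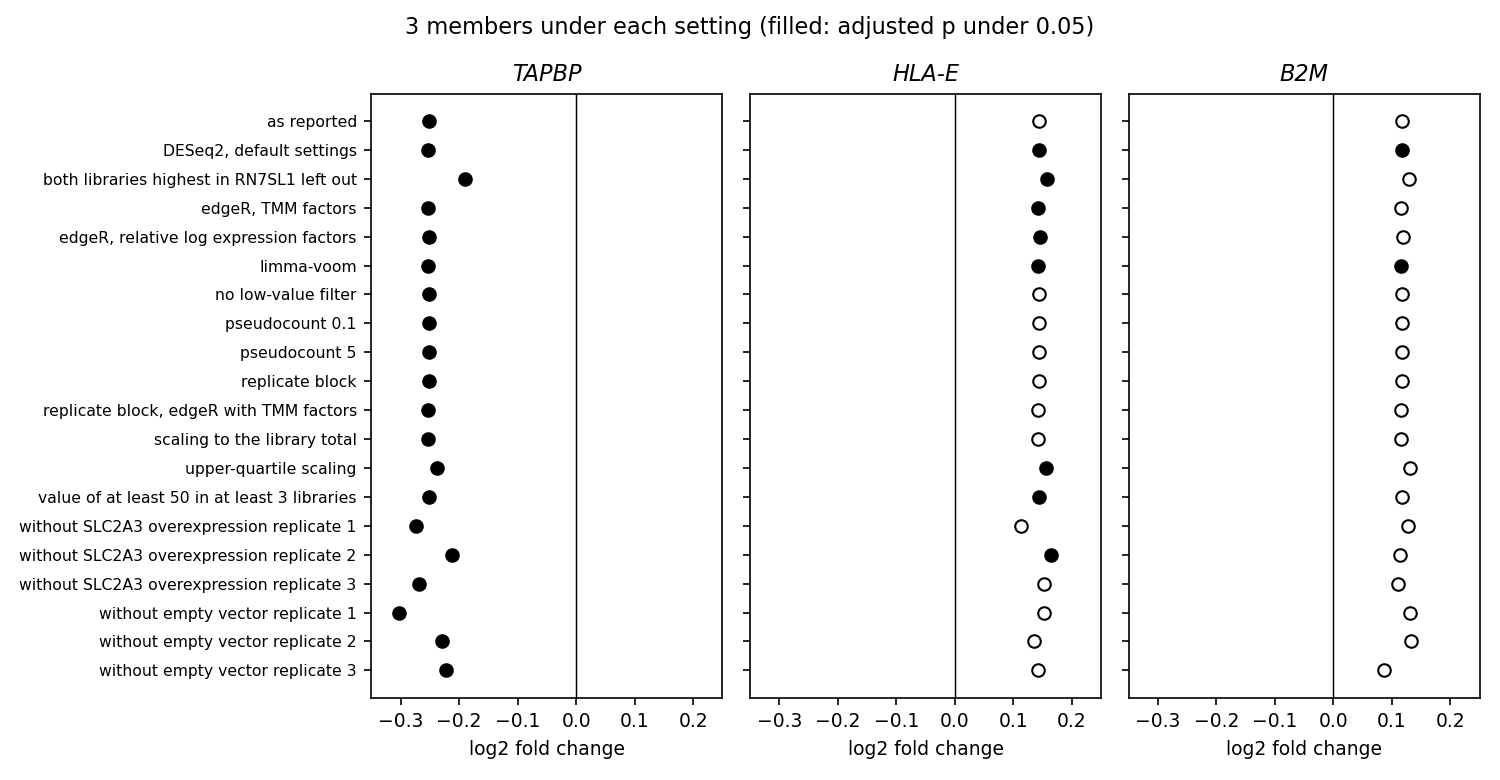
Log2 fold changes (horizontal axes) of TAPBP, HLA-E and B2M as reported and under 19 other settings (rows), filled where the adjusted p was under 0.05. TAPBP is filled in every row, HLA-E in 8 and B2M in 2.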

How the data were processed

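Gene expression in 6 RNA-seq libraries was read from 1 deposited table each. Per the labels, RNA was extracted with Trizol and libraries were made with a directional NEBNext Ultra II kit. BWA, TopHat2 and hg38 appear in the submitters' processing notes, with no roles stated, and annotation and counting are not given in the sources used here. The deposited values are a normalised signal: read counts divided by the authors by 1 factor per library, as found from the values, 100% of which were whole multiples of the value of 1 read within 0.001 reads. Those factors (0.936 to 1.08) equal the median-of-ratios factors that the recovered reads give. SEs, intervals and p-values from limma-trend are moderated: the variance of each gene is drawn towards a trend over all tested genes. They carry 27.1 degrees of freedom, so they do not measure the spread of that gene's own libraries alone.

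Symbols were found for 60641 of 60660 IDs, and coordinates and lengths are from GENCODE 29 on GRCh38, which may differ from the authors' annotation. log2(value + 1) was fitted by limma-trend (limma 3.58.1, R 4.3.3) on vector group alone, over genes at 1 or more in at least 3 libraries, with Benjamini-Hochberg adjustment over all 28015 and a threshold of 0.05. Fold changes on this scale understate low genes. The design assumed either raw counts or normalised values, and the second applied. Alternatives used edgeR 4.0.16, DESeq2 1.42.0 and limma-voom on recovered reads, different filters, pseudocounts and scalings, replicate as a block, and omission of single libraries.

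Tested on simulated counts for this comparison, limma-trend called 85% of the genes given a 1.5-fold change and 94% of those given a 2-fold change (100 each, among 28015), with 9 false calls. The changed genes were drawn from those with a mean of at least 50, so the shares do not cover lower genes. The changes of the members, all under 1.5-fold, were not simulated. No pair of replicates agreed within sampling noise (chi-square per gene 3.50 to 6.78). Members and lists were chosen with earlier results of these data known. The naming rule took all members, up to 4 called genes per list, called genes within 200 kb of a member, and the 5 genes nearest in profile among those with a mean of at least 50.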

Additional observations from a re-analysis of the deposited data

How the results depend on the processing

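TAPBP kept its direction and its call in all 19 alternatives, and HLA-B, HLA-C, HLA-F, TAP1 and NLRC5 kept their direction and stayed uncalled in all 19. TAP2 turned positive under upper-quartile scaling (0.0086), without SLC2A3 overexpression replicate 2 (0.055), without empty vector replicate 3 (0.031) and with both replicate 2 libraries left out (0.054), and leaving out 1 library gave it -0.057 to 0.055; the cause was not tested. Members called numbered 1 as reported. They numbered 2 with edgeR under TMM (3.29% of genes called) or relative log expression factors (3.27%), with upper-quartile scaling (1.54%), with at least 50 in 3 libraries (5.53%) and with both replicate 2 libraries left out (2.02%), in each case TAPBP and HLA-E. They numbered 3 with DESeq2 (8.62% of the 9332 genes it gave an adjusted p) and limma-voom (3.24%), with B2M added. Leaving out 1 library gave 1 to 2, the second being HLA-E without SLC2A3 overexpression replicate 2 (adjusted p = 0.0389, 1.09% of genes called). The median of the members was 0.050 as reported and 0.027 to 0.064 with 1 library left out.

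Over all genes, 194 were higher and 224 lower. DESeq2 gave 345 and 459, edgeR with relative log expression factors 297 higher, a minimum of 50 in 3 libraries 322 and 417, and a pseudocount of 0.1 144 lower. Leaving out 1 library gave 100 to 222 higher and 88 to 244 lower, with fewer samples. Deviations from the group means correlated at -0.079, -0.0022 and -0.0038 between same-numbered libraries over 13277 genes. Libraries with different numbers were not compared, so whether the replicate numbers pair the libraries is not settled. A replicate block gave 1 member called, TAPBP at -0.25 (limma adjusted p = 0.0054), a member median of 0.050, and 167 genes higher and 196 lower. With edgeR and TMM factors the block took the count of members from 2 to 1, as HLA-E lost its call (adjusted p = 0.0639). The block combined with edgeR and the fit without both replicate 2 libraries were chosen after seeing the data.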
